A study of Xenopus tropicalis with 12 samples.

Results

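Solute carriers are the membrane proteins that move amino acids, sugars, ions, metals, vitamins and organic acids across cell and organelle membranes. The genes described here are those of the frog Xenopus tropicalis whose symbol starts with slc and a number. Of 345 such genes in a RefSeq gene table, after slc22a6, slc34a2, slc34a3 and slc51b were set aside, 119 had a probe on the array, and 112 had a probe whose signal was well above background on at least 4 of 12 arrays. These 112 genes, out of 4371 genes with a symbol and a measured probe, are the subject. Each is represented by 1 probe, the brightest over all arrays where a gene had several, and 95 of the probes are named as specific and 17 as able to cross-hybridise with related transcripts. A further 7 genes with a probe were too dim and are described at the end.

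Total RNA came from whole embryos at 3 days post fertilization and was measured on 12 single-colour Agilent arrays in 3 groups of 4. The control group (C) has no exposure agent named in the labels. The other groups were exposed to naphthenic acids, carboxylic acids obtained from petroleum, as mixture S1 or mixture S2, which are separate lots of the same commercial product. Neither the dose, the length of exposure, the strain nor the number of embryos behind an array is given in the sources used here, so replicate arrays may be technical and the p-values measure the spread between these samples.

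Carriers fall into numbered families by sequence. Families slc1, slc6, slc7 and slc38 mostly carry amino acids or neurotransmitters, slc4, slc9, slc12 and slc26 inorganic ions, slc30, slc31 and slc39 metals, and slc35 the nucleotide sugars used in the Golgi. In a whole embryo they are made by many tissues, above all the kidney tubule, gut, liver, nervous system and ionocytes of the skin. A change in a whole embryo signal does not tell apart fewer cells of a type from less RNA per cell. A symbol starting with slc is not proof of a carrier: slc7a6os is named for lying on the opposite strand of a carrier gene, and slc4a1ap encodes a protein that binds a carrier. Both were kept by the rule and are described apart.

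Signals are given as log2 of the authors' processed signal relative to the array's 75th percentile, so 0 is the level that 75 percent of spots on that array do not exceed. Each change reported was taken within 1 probe. Signals of different probes were set together in choosing the brightest probe of a gene and in summing tissue markers. The 75th percentile itself ran from 499.5 to 984.8 intensity units in control arrays, from 260.9 to 537.3 in S1 arrays and from 481.3 to 675.1 in S2 arrays, so the S1 arrays were mostly dimmer than the controls. Between 105 and 112 of the solute carrier genes were well above background on each array, and 101 were so on all 12. Across all probes, C-3 lay farthest out on the first principal component (26.7% of the variance), S1-4 on the second (18.0%) and S2-4 on the third (10.9%). Arrays lay on 3 slides, each with every group. Of 48 tissue markers looked for, 14 were measured, all well above background on every array, and none of the 8 skeletal muscle and 6 neuron markers was measured.

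Groups were compared by limma in 1 fit over 29168 probes, with p-values adjusted over all of them by Benjamini-Hochberg and a gene called where the adjusted p was under 0.05. Adjusted p-values below are from that fit. Against control, 3 solute carrier genes rose with S1 and none fell. That is 2.68% of the 112 higher and 0% lower, where 1.4% of all probes were called higher and 0.703% lower. With S2, 6 genes rose and 2 fell, or 5.36% and 1.79%, where 2.43% of all probes were called higher and 2.63% lower. The 3 genes that rose with S1 are among the 6 that rose with S2, and both comparisons use the same 4 control arrays. Between S2 and S1 limma called none of the 112 genes in either direction, nor any probe at all (0%), although 12 solute carrier genes (10.7%) and 2142 probes (7.34%) had an unadjusted p under 0.05. The same test with arrayWeights raised the S2 count to 16, or 14.3% of the 112 genes, where 4026 probes (13.8%) were then called. The S1 count was 1 when C-1, C-2, C-3, C-4, S1-1, S1-3 or S2-3 was left out. Of all probes, 277 to 386 were then called, against 612 in the main fit. The S2 count was 3 without C-3, S2-1 or S2-2, was 4 without C-1, C-4 or S2-3, and was 5 without C-2. In these sets 482 to 591, 755 to 845 and 1125 of all probes were called, against 1476 in the main fit. Without C-3, S1-4 and S2-4 together the solute carrier count was 1 for S1 and 6 for S2, beside 411 and 995 of all probes. With the slide as a block it was also 1 and 6, beside 555 and 1049 of all probes. With the brightness of each array in the model, limma called 0 for S1 (15 at an unadjusted p under 0.05) and 6 for S2. Of all probes it then called 104 and 732. After normexp on local backgrounds as measured it called 0 with either mixture (1 and 3 at an unadjusted p under 0.05), and 28 and 29 of all probes. With outlying local backgrounds replaced, normexp gave 1 with S1 and 6 with S2, and 495 and 655 of all probes.

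A broader look gave the same small scale. The median log2 change of the 112 genes was 0.01 with S1 and 0.02 with S2, beside -0.02 and -0.04 over all probes. With S1, 57 of the 112 genes had a change above 0 (50.9%, against 47.5% of all probes), and with S2 58 had (51.8%, against 43.6%). The 4 treated and 4 control arrays did not overlap for 9 genes higher and 5 lower with S1, which is 8.04% and 4.46% of the genes where 5.61% and 4.95% of all probes did so. For S2 it was 9 higher and 7 lower, 8.04% and 6.25%, where 7.55% and 8.3% of all probes did so. The half-width of a 95% interval had a median of 0.34 on the log2 scale, and genes whose arrays lay close together had narrower ones.

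The metal transporters held the largest rise. slc39a8 encodes ZIP8, an importer of zinc, manganese and iron. Its log2 signal was -1.09, -1.44, -1.16 and -1.11 in the control arrays, -0.05, -0.54, 0.07 and -0.17 in S1 and -0.05, 0.08, -0.08 and -0.15 in S2. All 8 exposed arrays lay above all 4 controls, and the lowest exposed array, S1-2, was well clear of the highest control. The change was 1.03 ± 0.13 (SE) with S1, a 2.04-fold rise (adjusted p = 0.00163), and 1.15 ± 0.13 with S2, a 2.22-fold rise (adjusted p = 0.000565). On slides 1, 2 and 3 it was 1.04, 1.20 and 0.97 with S1 and 1.11, 1.35 and 0.99 with S2, so it was of similar size on each slide, and with the slide as a block it was 1.06 and 1.13. Both calls were kept with each of the 12 arrays left out in turn. With the brightness of each array in the model the S1 change was 0.94 (adjusted p = 0.129), and after normexp on backgrounds as measured the changes were 0.53 with S1 and 0.62 with S2 (adjusted p = 0.784 and 1). After normexp with outlying local backgrounds replaced, both calls were kept, at 0.84 with S1 and 0.93 with S2 (adjusted p = 0.00133 and 0.000452).

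slc31a2 encodes CTR2, a copper transporter of the endosomal system. It stood at 1.02, 1.28, 1.02 and 1.19 in control, at 1.31, 1.40, 1.44 and 1.48 in S1 and at 1.55, 1.65, 1.62 and 1.58 in S2. The 3 groups did not overlap, with S1 between the others. It rose by 0.47 ± 0.09 with S2 (adjusted p = 0.0133), a 1.39-fold change, and the S2 call was kept with each array left out. Within slides 1, 2 and 3 the S2 change was 0.57, 0.35 and 0.48, it was 0.49 with the slide as a block, and with the brightness of each array in the model it was 0.44 (adjusted p = 0.0528). With S1 the value was 0.28 ± 0.09 (adjusted p = 0.129), and S2 minus S1 was 0.19 with a 95% interval of 0.00 to 0.39 (adjusted p = 0.68). The other 9 metal transporters did not pass with either mixture. They include slc11a1, a macrophage metal transporter, at 0.72 with S1 (adjusted p = 0.243) and 0.33 with S2, and the zinc importer gene slc39a7 at 0.32 and 0.19.

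Among the 8 nucleoside and vitamin transporters, slc19a2, which encodes a thiamine (vitamin B1) transporter, rose with both mixtures. The control arrays held -0.54, -0.48, -0.59 and -0.55, S1 held -0.05, -0.02, -0.17 and -0.19, and S2 held -0.13, -0.07, 0.08 and 0.14. Its controls were tightly grouped, with an SD of 0.05, and no exposed array reached them. The rise was 0.44 ± 0.09 with S1 (1.35-fold, adjusted p = 0.0314) and 0.54 ± 0.09 with S2 (1.46-fold, adjusted p = 0.00677). Within slides 1, 2 and 3 the changes were 0.49, 0.39 and 0.39 with S1 and 0.44, 0.56 and 0.71 with S2, and with the slide as a block they were 0.42 (adjusted p = 0.0537) and 0.55 (adjusted p = 0.0159). The S2 call was kept with each array left out. The S1 call was lost without any 1 of C-1, C-2, C-3, C-4, S1-1, S1-2, S1-3 or S2-3, with adjusted p-values of 0.0515 to 0.0799. It was also lost with the brightness of each array in the model (0.57, adjusted p = 0.142). After normexp with outlying backgrounds replaced the changes were 0.37 with S1 and 0.46 with S2 (adjusted p = 0.0774 and 0.029). The folate carrier gene slc19a1 of the same family was at 0.20 with S1 and 0.05 with S2, and the ascorbate transporter gene slc23a1 was at 0.40 and 0.24, none of them passing.

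slc27a3 belongs to the fatty acid transport protein family, whose members attach coenzyme A to fatty acids. Its values were 1.20, 1.27, 0.65 and 1.26 in control, 1.79, 1.45, 1.42 and 1.27 in S1 and 1.90, 1.99, 1.90 and 1.58 in S2. Control array C-3 was far below the other controls, and S1-4 was barely above the highest control. The gene rose by 0.75 ± 0.16 with S2 (1.68-fold, adjusted p = 0.0239), with 0.75, 0.64 and 0.62 on slides 1, 2 and 3 and 0.66 with the slide as a block. Without C-3 the S2 change was 0.60 (adjusted p = 0.0526), and the call was also lost without S2-1, S2-2 or S2-3 (adjusted p = 0.0739, 0.0762 and 0.0616). With S1 it was 0.39 ± 0.16 (adjusted p = 0.243). The related acyl-CoA synthetase gene slc27a2, on a cross-hybridising probe, was at -0.02 with S1 and 0.15 with S2. The other 2 genes of lipid-linked substrates, slc33a1 for acetyl-CoA and slc44a1 for choline, were at 0.23 and 0.17 with S2, and none passed.

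slc15a4 encodes a lysosomal transporter of histidine and small peptides. It measured -0.08, -0.11, -0.03 and 0.03 in control, 0.22, 0.28, 0.47 and 0.32 in S1 and 0.42, 0.50, 0.55 and 0.09 in S2. S2-4 was the lowest exposed array, and still above the highest control. The rise with S2 was 0.44 ± 0.11 (1.35-fold, adjusted p = 0.0437) and the S1 value was 0.37 ± 0.11 (adjusted p = 0.112). On slide 3, which holds S2-4, the S2 value was 0.09, against 0.54 and 0.65 on slides 1 and 2, and with the slide as a block it was 0.42 (adjusted p = 0.0778). The call was kept without S1-3, S1-4 or S2-4 and lost without any 1 of the other 9 arrays (adjusted p = 0.051 to 0.127). With the brightness of each array in the model the S2 change of slc15a4 was 0.39 (adjusted p = 0.119). After normexp with outlying backgrounds replaced it was 0.32 (adjusted p = 0.22).

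slc7a6os, which by its name's origin encodes no carrier, gave -0.64, -0.64, -0.81 and -0.71 in control, -0.39, -0.19, -0.28 and -0.35 in S1 and -0.49, -0.40, -0.30 and -0.24 in S2. Each exposed array was above each control. It rose by 0.40 ± 0.09 with S1 (1.31-fold, adjusted p = 0.0461) and 0.34 ± 0.09 with S2 (1.27-fold, adjusted p = 0.0498). On slides 1, 2 and 3 the changes were 0.25, 0.40 and 0.41 with S1 and 0.19, 0.34 and 0.52 with S2, and with the slide as a block they were 0.38 and 0.35 (adjusted p = 0.0678 and 0.0639). Both calls sat close to the threshold: the S1 call was kept only without S2-4 and the S2 call only without S1-2, and the adjusted p was 0.0526 to 0.13 without any other array. The second gene that is named after a carrier only, slc4a1ap, was at 0.08 with S1 and 0.04 with S2.

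**Figure D1:**
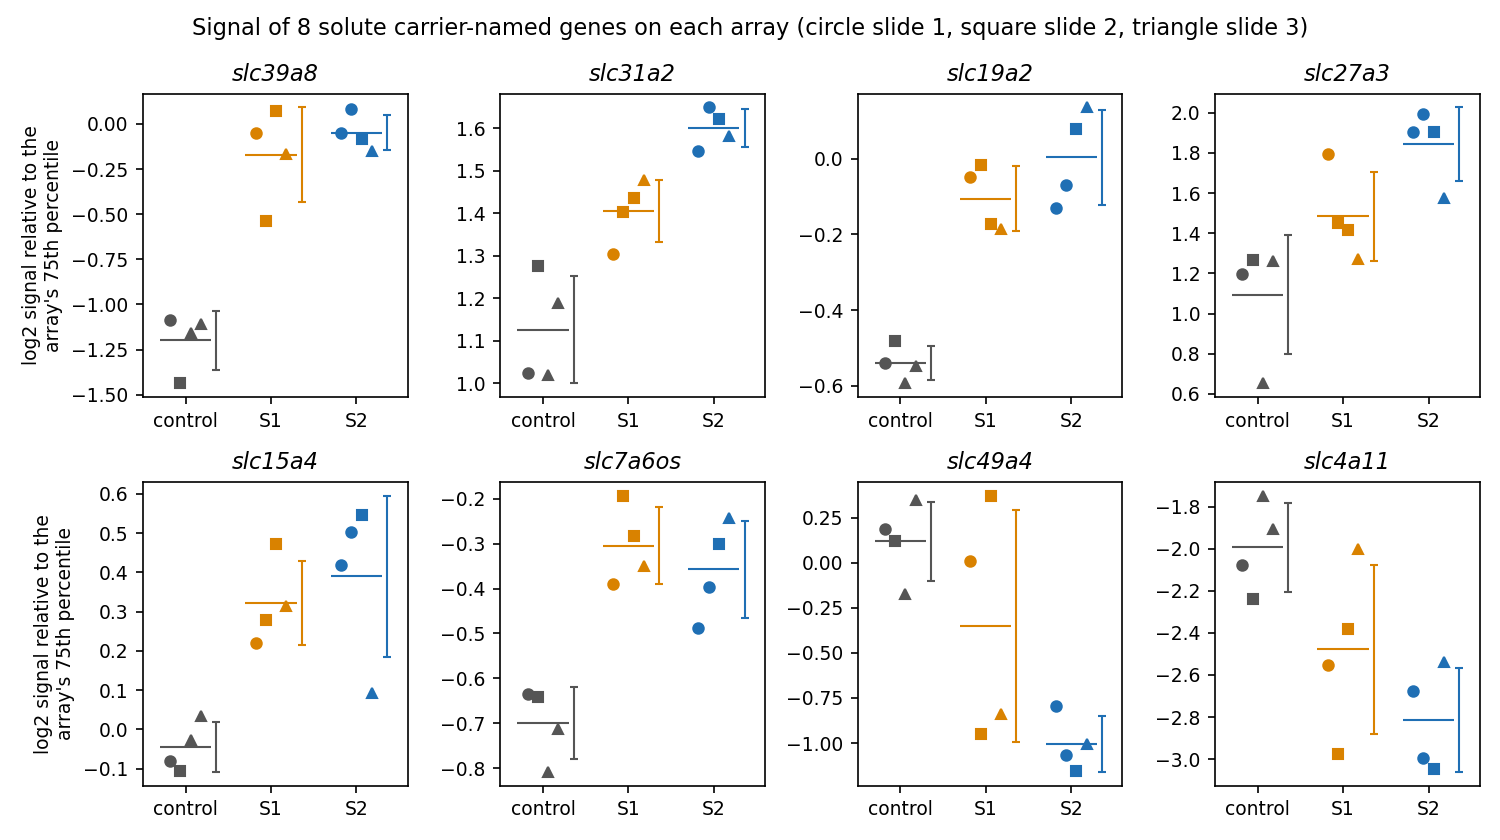
Log2 signal relative to the array's 75th percentile (vertical axis) of the 8 called genes on each array, by group (horizontal axis), with a line for the group mean, a bar for 1 SD (n = 4) and the marker shape giving the slide. For slc39a8, slc19a2, slc31a2, slc15a4, slc27a3 and slc7a6os every exposed array lies above every control; for slc49a4 and slc4a11 every S2 array lies below every control, while S1 arrays overlap the controls.

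The 2 genes that fell did so with S2. slc49a4, also known as DIRC2, encodes a carrier of the lysosomal membrane. It stood at 0.18, 0.12, -0.18 and 0.35 in control and at -0.80, -1.07, -1.16 and -1.004 in S2, with no overlap. In S1 it was 0.01, -0.95, 0.37 and -0.84, so S1-1 and S1-3 were within or above the control range and S1-2 and S1-4 were near the S2 level. The fall with S2 was -1.12 ± 0.26, or 2.18-fold (adjusted p = 0.0301), and it was -1.12, -1.27 and -1.09 on slides 1, 2 and 3 and -1.20 with the slide as a block. With S1 the value was -0.47 ± 0.26 (adjusted p = 0.385). The S2 call was lost without any 1 of C-1, C-2, C-3, C-4, S2-1, S2-2 or S2-3 (adjusted p = 0.0522 to 0.0831), and without C-3, S1-4 and S2-4 together the value was -1.22 (adjusted p = 0.0545). With the brightness of each array in the model the S2 change was -1.04 (adjusted p = 0.0895), and after normexp on backgrounds as measured it was -0.54 (adjusted p = 1). After normexp with outlying backgrounds replaced it was -1.004 (adjusted p = 0.0167), and the call was kept.

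slc4a11 belongs to the bicarbonate transporter family, conducts protons and ammonia, and is best known from the inner cell layer of the cornea in mammals. It was at -2.08, -2.24, -1.75 and -1.91 in control, at -2.55, -2.97, -2.38 and -2.004 in S1 and at -2.68, -2.997, -3.04 and -2.54 in S2. All S2 arrays lay below all controls, while S1-4 lay among the controls. The fall with S2 was -0.82 ± 0.20, or 1.77-fold (adjusted p = 0.035), with -0.76, -0.81 and -0.71 on slides 1, 2 and 3 and -0.74 with the slide as a block. The S1 value was -0.48 ± 0.20 (adjusted p = 0.229), and after normexp it was 0.21 on backgrounds as measured and -0.17 with outlying ones replaced. The S2 call was lost without any 1 of C-1, C-3, C-4, S2-1, S2-2 or S2-3 (adjusted p = 0.0664 to 0.103). After normexp correction with outlying local backgrounds replaced, the value was -0.46 (adjusted p = 0.182), and with backgrounds as measured it was -0.07 (adjusted p = 1).

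Several marker genes of tissues differed between the groups alongside these changes. The summed linear level of 5 liver markers (of 8 listed) was 57.8 to 103 in control arrays, 88.8 to 115 in S1 and 132 to 140 in S2, and most of each sum came from apob. plg was called higher with both mixtures (0.65 and 0.82) and apob with S2 (0.28 with S1 and 0.73 with S2). The other 3 were uncalled, serpina1 at 0.11 and 0.26, alb at 0.06 and -0.25 and fga at -0.26 and -0.19. Of the skin list only krt78.1, a keratin gene, was measured (1 of 6), at 1.09 to 1.66 in control, 0.286 to 0.467 in S1 and 0.161 to 0.343 in S2, and it was called lower with both. The single lens marker measured of 6, bfsp1, was at 0.476 to 0.797, 0.155 to 0.252 and 0.0857 to 0.548 and passed with neither. The 5 kidney tubule markers (of 8) had similar ranges, 9.05 to 9.95, 9.02 to 10.3 and 9.33 to 10.5, with lrp2 called higher with S2, and the 2 erythroid markers (of 6) summed to 2.87 to 4.45, 2.68 to 3.81 and 3.11 to 3.46. The kidney list holds the chloride cotransporter genes slc12a1 and slc12a3, and the erythroid list the red cell anion exchanger gene slc4a1, all 3 uncalled. The part of these tissues in the solute carrier results was not tested.

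Beyond the called genes, the rule for naming took the uncalled genes with the smallest unadjusted p in each comparison with control. slc35d2, a nucleotide sugar transporter of the Golgi, was close to the threshold with both mixtures, at -1.53, -1.56, -1.70 and -1.59 in control, -1.31, -1.32, -0.86 and -1.04 in S1 and -1.24, -1.26, -1.13 and -1.18 in S2. No exposed array overlapped the controls, and the changes were 0.46 with S1 (adjusted p = 0.0576) and 0.39 with S2 (adjusted p = 0.0664). After quantile normalization slc35d2 passed with S1 (adjusted p = 0.0496), as it did without S1-2 (0.0444), and it passed with S2 without S1-3 (0.0438). slc26a2, a sulfate transporter needed in cartilage, was at 0.61 with S1 (adjusted p = 0.141) and 0.68 with S2 (adjusted p = 0.0738), and control array C-1, at -3.09, overlapped arrays of both mixtures. In the authors' value table it passed with S2 (adjusted p = 0.0432).

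slc1a1, a transporter of glutamate and cysteine, had the lowest S1 change among the genes well above background on all 12 arrays. Its controls were -2.24, -2.12, -2.44 and -1.85, the S1 arrays -2.56, -2.95, -2.96 and -2.86, and the S2 arrays -2.40, -2.09, -2.56 and -2.79. The S1 arrays were all below the controls and the S2 arrays overlapped them. The change was -0.67 with S1 (adjusted p = 0.0636) and -0.30 with S2 (adjusted p = 0.33). S2 minus S1 was 0.37, with a 95% interval of 0.01 to 0.73. Tested only over probes well above background on all 12 arrays, slc1a1 passed with S1 (adjusted p = 0.0464), as it did without S2-4 (0.0462). Under normexp the S1 change of slc1a1 was 0.26 on backgrounds as measured and -0.16 with outlying ones replaced (adjusted p = 0.822 and 0.44). The S2 change was 0.07 and -0.13 under these 2 settings.

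slc17a8, which encodes the vesicular glutamate transporter VGLUT3, was at -5.39, -5.27, -5.03 and -5.10 in control, -5.16, -5.62, -5.12 and -4.97 in S1 and -5.42, -5.87, -5.86 and -5.84 in S2. The S2 arrays lay below the controls, though S2-1 by only a little, and the gene was well above background on 2 of 4 S2 arrays. It was at -0.02 with S1 and -0.55 with S2 (adjusted p = 0.0636). slc35d3, an orphan of the nucleotide sugar family, was at -0.17 with S1 and -0.42 with S2 (adjusted p = 0.077), all 4 S2 arrays being below the controls. With arrayWeights both passed with S2 (adjusted p = 0.0398 and 0.021), and slc17a8 also passed without S1-2 (0.0338) and slc35d3 without S1-4 (0.0416). Under normexp the S2 change lay above 0 for both, and none passed. It was 0.24 for slc17a8 and 0.17 for slc35d3 on backgrounds as measured, and 0.13 and 0.03 with outlying backgrounds replaced. Both genes are dim, so the normexp floor leaves these signs no check of direction.

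The other named genes were farther from the threshold. slc35f4, another member of the slc35 family, was at -0.33 with S1 (adjusted p = 0.126) and -0.09 with S2. The sodium-proton exchanger genes slc9a4 and slc9a5 were at -0.47 and 0.07 with S1 and at -0.54 (adjusted p = 0.129) and -0.26 (adjusted p = 0.135) with S2. With arrayWeights, where 13.8% of all probes were called with S2, both passed with S2 (adjusted p = 0.0371 and 0.0324). slc16a14, of the monocarboxylate family, was at -0.41 with S1 (adjusted p = 0.207) and -0.35 with S2 (adjusted p = 0.23). slc10a1, which encodes the bile acid importer of the liver cell, was at -0.46 with S1 and -0.80 ± 0.31 with S2 (adjusted p = 0.153). Its controls ran from -5.10 to -3.74 and its S2 arrays from -5.68 to -4.31, so the groups overlapped, with S2-3 the highest S2 array. Without S2-3 the S2 change was -1.10 (adjusted p = 0.0467), while under normexp it was 0.18 on backgrounds as measured and 0.0065 with outlying ones replaced (adjusted p = 1 and 0.989). The cationic amino acid transporter gene slc7a1 was at 0.14 and 0.48, and the choline transporter gene slc5a7 at -0.03 and -0.32, both without overlap of S2 and control arrays and with adjusted p-values of 0.165 and 0.199. Under normexp on backgrounds as measured, changes that were below 0 lay above 0 for slc9a5 and slc5a7 with S2 (0.23 and 0.15). They did so for slc35f4, slc16a14 and slc10a1 with S1 (0.11, 0.30 and 0.65) and for slc9a4 with both mixtures (0.32 and 0.04). With outlying backgrounds replaced, the S2 changes of slc9a5 and slc5a7 were 0.086 and 0.0084, and the S1 change of slc10a1 was 0.37. slc35f4 and slc16a14 were then at -0.08 and -0.01 with S1, and slc9a4 at -0.06 and -0.25. None of these normexp changes passed. For the dim genes slc10a1, slc9a5 and slc5a7, the normexp floor leaves the signs no check of direction.

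**Figure D2:**
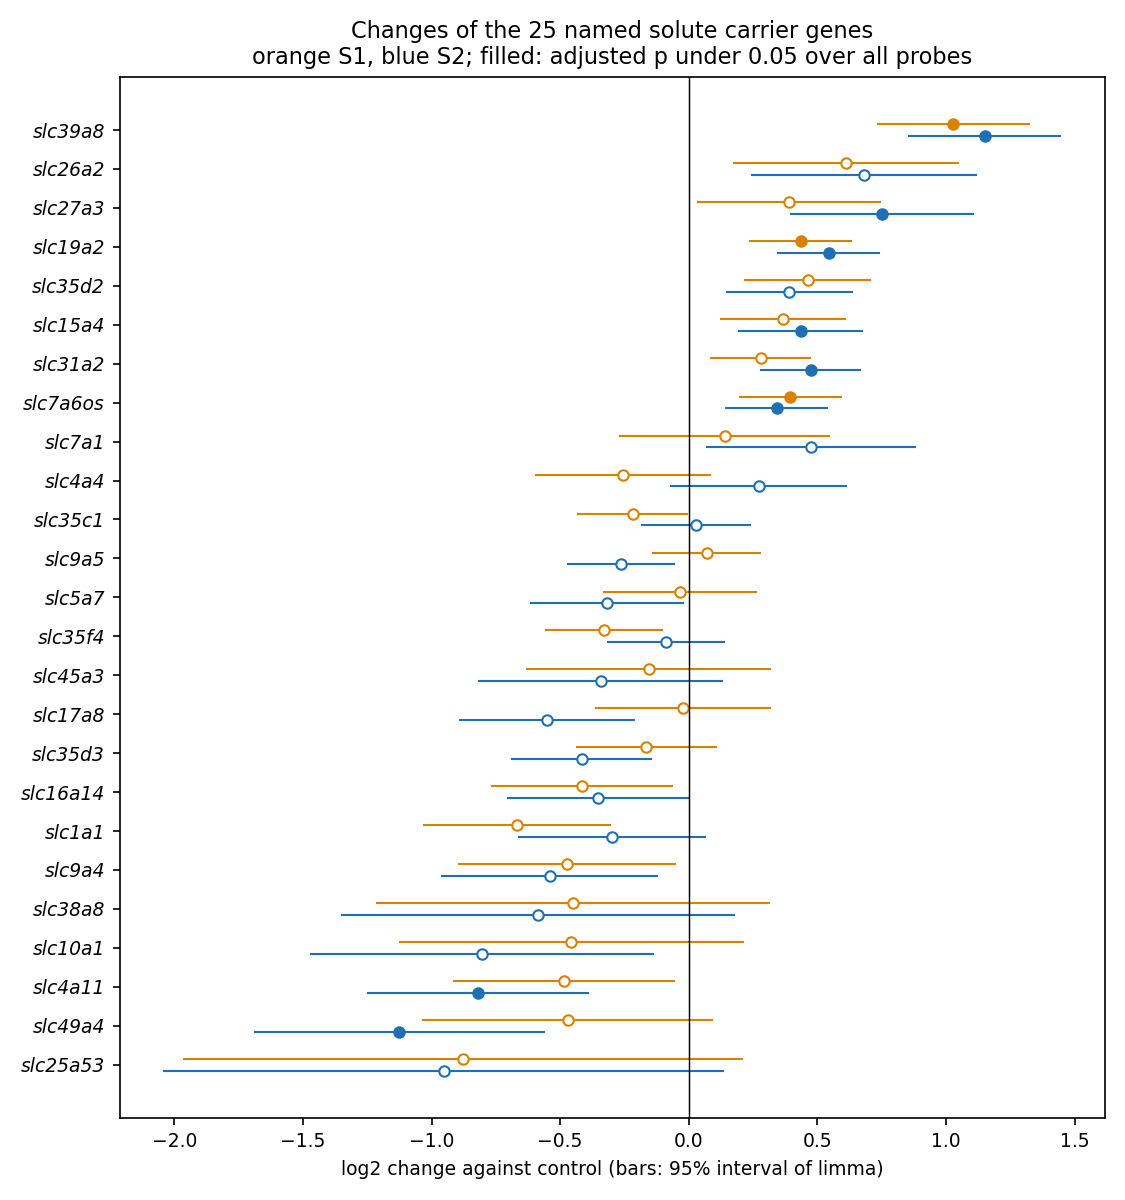
Log2 change against control (horizontal axis) with its 95% interval from limma for the 25 named genes (vertical axis), S1 in orange and S2 in blue, filled where the adjusted p was under 0.05. slc39a8 stands apart at 1.03 and 1.15; slc25a53, at -0.88 and -0.95, has intervals that cross 0.

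The direct comparison of the mixtures left no called gene, and the genes with the smallest unadjusted p are given as values. slc9a5 was at -4.38 to -4.19 in S1 and -4.76 to -4.45 in S2, without overlap, a difference (S2 minus S1) of -0.33 ± 0.10 (unadjusted p = 0.00441, adjusted p = 0.534). slc17a8 differed by -0.53 ± 0.16 (adjusted p = 0.534). slc4a4, the sodium bicarbonate cotransporter of kidney and pancreas, differed by 0.53 ± 0.16 (adjusted p = 0.534). It was at -0.25 with S1 and 0.27 with S2 against control. The arrays of slc4a4 ran from 1.00 to 1.64 in S1, from 1.62 to 2.03 in S2 and from 1.42 to 1.71 in control, so the groups overlapped. slc35c1, the GDP-fucose transporter, measured on a cross-hybridising probe, differed by 0.25 ± 0.10 (adjusted p = 0.675), with S1 arrays at 2.42 to 2.67 and S2 arrays at 2.73 to 2.84. slc49a4 differed by -0.65 (95% interval -1.22 to -0.09, adjusted p = 0.675). For slc39a8 the difference was 0.12 with an interval of -0.17 to 0.42, for slc19a2 0.11 with -0.09 to 0.30, and for slc4a11 -0.34 with -0.76 to 0.09. These intervals do not show that the mixtures acted alike on any of them.

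Grouped by substrate, the changes did not gather in 1 class by count. The 17 amino acid transporters held no called gene with either mixture, with medians of 0.01 with S1 and -0.03 with S2. The largest mean absolute change over both mixtures was in slc38a8, a glutamine transporter, at -0.45 and -0.59. This dim gene was well above background on 4 control arrays, 1 S1 array and 2 S2 arrays. Under normexp its S1 and S2 changes lay above 0, at 0.73 and 0.26 on backgrounds as measured. With outlying ones replaced they were 0.46 and 0.15. For a gene this dim, the normexp floor leaves these signs no check of direction. slc6a20, an amino acid transporter on a cross-hybridising probe, was at 0.51 and 0.47, and neither gene passed. slc3a2, the shared heavy subunit of the paired amino acid exchangers, was at 0.01 and 0.15 on a cross-hybridising probe. The 8 neurotransmitter and osmolyte transporters held no called gene either, with medians of -0.07 and -0.24. Of the 8, 1 was above 0 with S1 and 2 with S2, where 47.5% and 43.6% of all probes were. The neuron marker list had no measured gene to set beside them. After values were seen, slc6a14.1, slc6a14.2 and slc6a7 (0.14, 0.46 and -0.09 with S1) were placed in the amino acid class. As given above, normexp put slc17a8 and slc5a7 above 0 with S2.

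The 25 inorganic ion exchangers and cotransporters, the largest class, had 1 call, the fall of slc4a11 with S2, and medians of -0.02 and 0.03. The red cell and kidney exchangers slc4a1 and slc26a7 were at -0.04 and -0.09 with S1 and -0.04 and 0.12 with S2. slc24a5, the exchanger of pigment cells, was at -0.20 and -0.34. The 13 organic ion, bile acid, peptide and monocarboxylate transporters had 1 call, slc15a4 with S2, and medians of -0.06 and -0.09. The organic cation transporter gene slc22a2 was at -0.22 and 0.20, the carnitine transporter gene slc22a5 at 0.15 and 0.28, and slc51a, a subunit of the bile acid exporter, at 0.25 and 0.23. None of these 3 passed.

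The 11 metal transporters had 1 call with S1 and 2 with S2, all higher, and medians of 0.04 and 0.10. The 8 nucleoside and vitamin transporters had 1 higher with each mixture and medians of 0.23 and 0.15. Of the 4 genes of fatty acid, acetyl-CoA and choline transport, 1 was higher with S2, and the medians were 0.33 and 0.20. The 12 nucleotide sugar transporters held none, with medians of 0.12 and -0.005. The 5 mitochondrial carriers held none, with medians of 0.07 and 0.09; slc25a37, the iron importer of mitochondria, was at 0.29 and 0.12 on a cross-hybridising probe. The 3 sugar transporters held none, with slc45a3 farthest from 0 at -0.16 and -0.34. The class of phosphate, sulfate and carboxylate transporters, with slc13a1 and slc13a5 as its 2 members, held none either. The sulfate carriers slc26a1 and slc26a2 were counted with the inorganic ion exchangers. Over all probes the medians were -0.02 and -0.04. Of all probes, 1.4% were called higher and 0.703% lower with S1, and 2.43% and 2.63% with S2. Under normexp slc45a3 was at 0.48 with S1 and 0.18 with S2 on backgrounds as measured, and at 0.18 and -0.10 with outlying ones replaced.

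**Figure D3:**
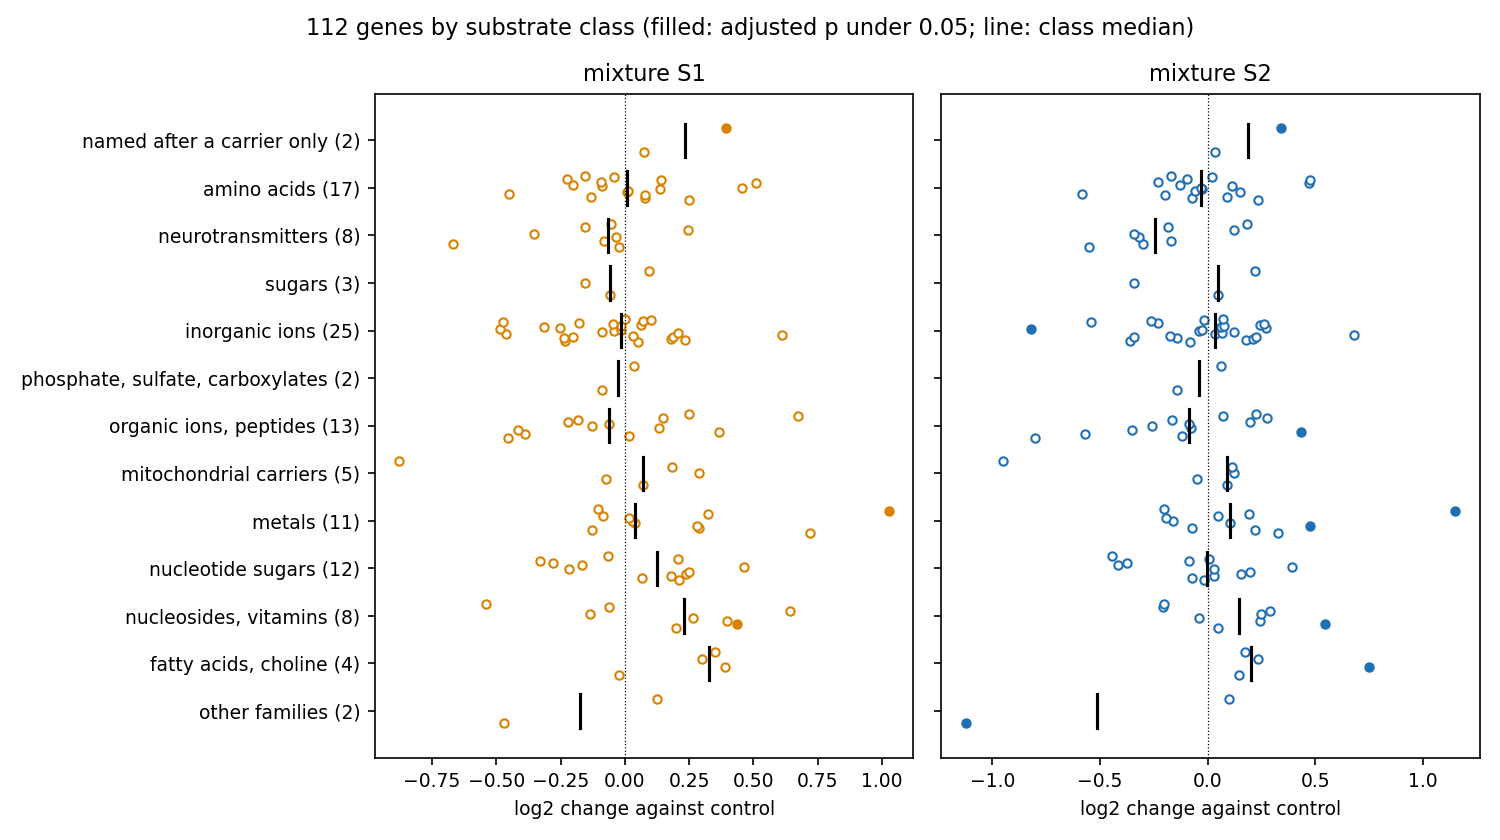
Log2 change against control (horizontal axis) of all 112 genes by substrate class (vertical axis, with the number of genes), S1 on the left and S2 on the right, filled where the adjusted p was under 0.05 and with a black line for the class median. Most of the 112 genes lie within 0.5 of 0, and the filled points fall in 7 classes.

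The genes also differed in how tightly their arrays agreed. The median residual SD of the 112 genes was 0.22 on the log2 scale, against 0.21 over all probes. slc31a2, slc26a11 and slc19a2 had the smallest, 0.088, 0.091 and 0.092, and the first and last of these are called genes. slc25a53 had the largest, 0.80, followed by slc52a3 at 0.69 and slc12a2 at 0.60, 3 dim genes that were well above background on 6, 7 and 4 arrays. slc25a53, a mitochondrial carrier, was at -5.71, -5.49, -5.14 and -5.47 in control, -5.52, -7.36, -7.21 and -5.24 in S1 and -6.69, -6.77, -6.95 and -5.21 in S2. It was well above background on all 4 control arrays and on 1 array of each mixture, and its values of -0.88 with S1 (adjusted p = 0.405) and -0.95 with S2 (adjusted p = 0.298) did not pass. Under normexp its S1 and S2 changes lay above 0, at 0.72 and 0.30 on backgrounds as measured. With outlying ones replaced they were 0.48 and 0.15. For a gene this dim, the normexp floor leaves these signs no check of direction. slc12a2, the sodium-potassium-chloride cotransporter, was well above background on no S1 array, on 2 control arrays and on 2 S2 arrays. Its mean was -5.88 in control and -6.11 in S1, a change of -0.23 (adjusted p = 0.823). The S1 and control arrays of slc12a2 overlapped. The interval of this change from limma ran from -1.05 to 0.59, so neither a fall nor a rise was shown.

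slc26a1, a sulfate and oxalate exchanger, was the only gene with several kept probes. Its 4 probes gave 0.19 to 0.32 with S1 and 0.23 to 0.41 with S2, all of the same sign, and none passed. By the gene table the 112 genes lie on all 10 chromosomes, from 4 genes on chromosome 7 to 17 on chromosome 3. The called genes slc39a8, slc15a4 and slc4a11 are on chromosome 1, slc19a2 on chromosome 2, slc27a3 on 3, slc7a6os on 4, slc31a2 on 8 and slc49a4 on 9. Of 32 genes that neighbour them in the gene table's order, 6 were measured, and none passed. They include nfkb1, next to slc39a8, at 0.21 with S1 and -0.04 with S2, and the coagulation factor gene f5, next to slc19a2, at 0.14 and 0.03.

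A list of 26 genes linked to carriers, such as their chaperones, pumps and regulators, was looked up, and 8 were measured. With S1 none passed, and with S2 2 rose and 1 fell, with medians of 0.13 and 0.06. Over all probes 1.4% were called higher and 0.703% lower with S1, and 2.43% and 2.63% with S2. The list was short and was chosen with earlier results of these data known. lrp2, the endocytic receptor of the kidney tubule, was at 0.36 with S1 and rose by 0.58 with S2 (adjusted p = 0.0171). nr1h4, the bile acid receptor FXR, rose by 0.49 with S2 (adjusted p = 0.0351). chac1, a glutathione-degrading enzyme of the amino acid stress response, was at -0.50 with S1 (adjusted p = 0.0576) and fell by 0.58 with S2 (adjusted p = 0.0218). The receptor genes nr1i2 and ppara, the liver factor gene hnf4a and the sodium pump subunit gene atp1b2 did not pass.

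Of the 7 genes that were too dim, slc7a11, slc47a1, slc12a3l and slc39a6 were well above background on no array. slc19a3.2, of the thiamine transporter family, was well above background on 3 control arrays and on no exposed array. Its values were -6.74, -6.37, -5.59 and -5.57 in control, -8.06, -6.83, -6.38 and -6.89 in S1 and -8.40, -8.09, -7.66 and -7.34 in S2. The group means were -6.07, -7.04 and -7.87. By these means, slc19a3.2 was at least 1.77-fold lower in S1 and at least 2.82-fold lower in S2 than in control. These bounds take no account of the spread between arrays, and S1-3 lay above C-1. Tested without a filter on dim probes, slc19a3.2 had an adjusted p of 0.25 with S1 and 0.0303 with S2. slc5a2, the kidney glucose transporter, was well above background on 1 control array only, on a cross-hybridising probe, and slc25a22 on 2 control arrays and 1 S1 array.

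**Figure D4:**
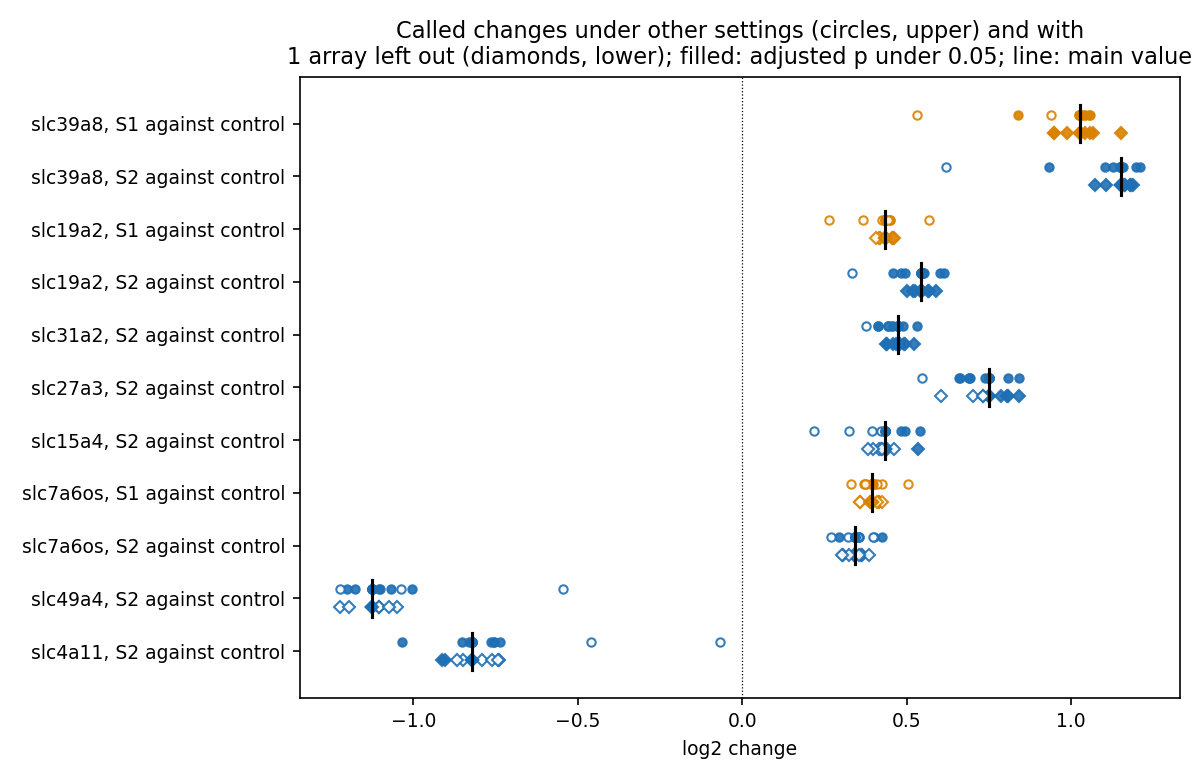
Log2 change (horizontal axis) of the 11 called changes (vertical axis) under 14 other settings (circles) and with each of 12 arrays left out (diamonds), filled where the adjusted p stayed under 0.05, with a black line at the reported value. No value changed sign, and slc39a8 (both mixtures), slc19a2 (S2) and slc31a2 (S2) stayed filled in all 12 sets of 11 arrays. The settings of specific probes only and of the mean of a gene's kept probes could not differ from the reported values.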

How the data were processed

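Per the file headers, Agilent Feature Extraction 11.0.1.1 gave the authors' processed signal per spot, a linear intensity, and the array design's build is JGI 4.1. The authors' deposited value table holds log2 values. Each of its 12 columns has the median 6.80 and equals the quantile-normalized log2 processed signal to within 0.00126, and its software was not given in the sources used here.

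Values here are log2 processed signal minus the 75th percentile of the array's non-control spots. Spots marked as outliers (295) were dropped where the probe had another spot unmarked on the array, and spots of 1 probe were averaged. No spot of the probes that represent the solute carrier genes was saturated. Of 32899 probes, the 29168 that were well above background on 4 or more of the 12 arrays were tested in R 4.3.3 by lmFit and eBayes of limma 3.58.1, over 12 arrays without covariates, for each mixture against control and S2 minus S1. The fit was tested on simulated data. Probes were named through RefSeq accessions in a gene table of the assembly UCB_Xtro_10.0, used for names, chromosomes and gene order only; 5452 probes matched a symbol. Python 3.11.15 with matplotlib 3.10.9 drew the figures.

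The members and lists were chosen with earlier results of these data known. Named were all called genes, the 10 uncalled genes with the smallest unadjusted p against control per mixture, the 5 with the smallest between mixtures, and the gene with the largest mean absolute change of each class of at least 3; some results that the rule or the lists take are not reported here, and others in the text were chosen after their values were seen. Substrate classes go by family; slc7a6os and slc4a1ap were given a class of their own, and slc6a7, slc6a14.1 and slc6a14.2 were moved to the amino acid class, after values were seen. "At least N-fold" sets the brighter group's mean against the dimmer group's mean, raised on each array to at least the lowest signal that counted as well above background. The precision is limited by 4 arrays a group. Alternatives covered background correction (normexp, offset 50, on the median spot signal in place of the mean signal that was planned), scaling, the authors' table, the dim-probe filter, slide and replicate blocks, array brightness, array weights, left-out arrays and the choice of probe.

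Deviations of same-numbered arrays from their group means correlated at -0.029 to 0.362, and those of unlike-numbered arrays at -0.444 to 0.451. These values do not settle whether the replicate numbers pair the arrays. Between groups, arrays on the same slide correlated at -0.01 to 0.451 and arrays on different slides at -0.444 to 0.197. The main fit held no term for slide or replicate number, and each was run as a block among the alternatives.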

Additional observations from a re-analysis of the deposited data

Results flagged for a closer look

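In 75 groups of 4 arrays of the named genes, 1 array lay far from the other 3 by Dixon's criterion in 4 cases. Chance gives about 1 in 20 such groups. For slc27a3, control array C-3 was at 0.65 while the other controls were at 1.20 to 1.27. For slc25a53, S2-4 was at -5.21 against -6.95 to -6.69. For slc17a8, S2-1 was at -5.42 against -5.87 to -5.84. For slc7a1, S1-2 was at -4.78 against -4.07 to -3.97. Only the slc27a3 case touches a called gene, and its change without C-3 stands with its result above. None of the named genes had all S1 arrays on one side of the controls and all S2 arrays on the other.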

How the results depend on the processing

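The main counts were 3 genes with S1, 8 with S2 and 0 between the mixtures, and the last stayed 0 in every setting run. After normexp on local backgrounds as measured, limma called 0 with S1 and 0 with S2, and the arrays' lowest percentile of signal then ran from 56.8 to 1316.7 intensity units. With outlying backgrounds replaced it ran from 54.9 to 60, and the counts were 1 and 6. With array brightness as a covariate they were 0 and 6, beside 104 and 732 of all probes. The S1 count was 1 under scaling by the array median, the slide as a block and the replicate block, and without C-3, S1-4 and S2-4 together. All probes called with S1 were then 482, 555, 420 and 411. Over probes above background on all 12 arrays the S1 count was 5 of 101 genes, beside 785 of all such probes. The slide as a block and the replicate block each gave 6 with S2 and 0 between mixtures. Whether the replicate numbers pair the arrays was not settled. Array weights gave 16 with S2 (14.3%, beside 13.8% of all probes). With 1 array left out, counts ran from 1 to 4 with S1 and from 3 to 8 with S2. Of all probes, 277 to 744 were then called with S1 and 482 to 1673 with S2. Over all probes, the main counts with S1 and S2 were 612 and 1476. They were 420 and 1100 with the replicate block and 555 and 1049 with the slide as a block. Of the probes called with S2, 48.1% were higher, or 59.7% under median scaling. Of 286 repeats of the 11 called changes, 190 kept the call, 96 lost it and 0 turned sign. Among them, specific probes only and the mean of a gene's kept probes repeat the main values. Each called gene had a single kept probe, a specific one, so these settings could not alter it. The authors' table nearly equals quantile normalization, so that setting is close to a repeat. Of 849 repeats of uncalled changes, 19 passed and 30 turned sign without passing. Under normexp, its floor leaves the sign of a dim gene no check of direction. slc39a8 lost both calls after normexp on backgrounds as measured (0.53 with S1 and 0.62 with S2, adjusted p = 0.784 and 1) and its S1 call with brightness (0.94, adjusted p = 0.129). After normexp with outlying backgrounds replaced it kept both (0.84 with S1 and 0.93 with S2, adjusted p = 0.00133 and 0.000452). The causes of the lost calls were not tested. Detection is limited by 4 arrays a group and, for 11 genes, by signal near background.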
